A study of Homo sapiens with 7 samples.

Results

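The 49 genes described here are the cyclins, kinases and E2F factors of the G1/S transition and the genes of DNA replication, chosen by name as every probe set that the platform annotation assigns to 1 of the 49 genes alone. They were read from 101 of the 54675 probe sets of an Affymetrix U133 Plus 2.0 array, and they are 49 of the 19775 genes read in all. By role they comprise 9 cyclins and kinases, 3 E2F factors, 11 licensing genes, 8 genes of origin firing, 13 genes of the clamp, clamp loader, polymerases and single-strand binding, and 5 genes of nucleotide supply and related steps.

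The cells were HT1080, an established human fibrosarcoma line, in 7 cultures with 1 array each. Plant polyphenols were added singly to 4 of them for 2 h. Catechin was used at 11.25 ng/ml, while both epicatechin and taxifolin were used at 6.25 ng/ml and resveratrol at 2195 ng/ml. A further 2 cultures held added serum at 5% for 2 h, either pycnogenol serum, the label's pycnogenol-positive serum, or control serum. The 7th culture was untreated. The labels do not say where the control serum came from, so pycnogenol intake cannot be told apart from another source or donor of serum. Pycnogenol is a pine bark extract, and the protocol describes the serum as coming from patients who took it. All cells were of the same line, grown in medium with fetal bovine serum and plated a day before the medium was replaced, and the labels do not say whether the replacement medium held fetal bovine serum or whether the untreated culture went through the same change. With 1 array per culture there was no replicate error and no p-value, so every difference below describes the arrays at hand, and serum and treatment steps cannot be told apart from array-to-array variation.

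D-type cyclins bind CDK4 and CDK6 and start the phosphorylation of the retinoblastoma protein, which frees E2F factors to drive the transcription of cyclin E and of replication genes. The origin recognition complex, CDC6 and CDT1 load the MCM helicase onto DNA, and the kinase CDC7 with DBF4, together with cyclin E and CDK2, turns the loaded helicase into an active one with CDC45 and the GINS complex. Serum is the textbook signal by which resting cells enter this program, and the D cyclins respond to it before the replication genes do.

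Many genes of this program carry E2F sites near their starts, so the promoters of the members were searched for the motifs TTTCCCGC, TTTCGCGC, TTTGCCGC and TTTGGCGC on both strands. The windows came from RefSeq for GRCh38.p14 and ran from 250 bases before to 50 after each start. A window was at hand for 41 of the 49 members, and 19 of these, 46.3%, held at least 1 match, against 3.31% of all 35116 windows. A match is a run of letters and not a measured binding site. The windows below belong to E2F1 and CDC25A, which had matches and lay among the 5 members that differed most between control serum and the untreated culture, and to MCM6, chosen after its values were seen as the member with the most matches. Each is written 5′ to 3′ on the gene's strand, with the matches in capitals. E2F1 lies at chr20:33686336-33686635 on the minus strand, CDC25A at chr3:48188368-48188667 on the minus strand and MCM6 at chr2:135876394-135876693 on the minus strand.
E2F1: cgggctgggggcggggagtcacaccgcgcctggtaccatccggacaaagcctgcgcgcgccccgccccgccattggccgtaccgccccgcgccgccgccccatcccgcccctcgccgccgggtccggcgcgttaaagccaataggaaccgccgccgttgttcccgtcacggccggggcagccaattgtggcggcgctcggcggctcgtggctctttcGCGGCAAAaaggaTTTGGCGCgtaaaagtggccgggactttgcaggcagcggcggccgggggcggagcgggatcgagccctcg
CDC25A: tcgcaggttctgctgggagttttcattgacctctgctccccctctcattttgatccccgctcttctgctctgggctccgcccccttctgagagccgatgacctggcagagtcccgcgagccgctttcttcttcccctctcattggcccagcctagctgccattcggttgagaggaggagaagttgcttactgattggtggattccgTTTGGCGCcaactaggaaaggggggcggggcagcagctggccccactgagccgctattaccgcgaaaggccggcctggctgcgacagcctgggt
MCM6: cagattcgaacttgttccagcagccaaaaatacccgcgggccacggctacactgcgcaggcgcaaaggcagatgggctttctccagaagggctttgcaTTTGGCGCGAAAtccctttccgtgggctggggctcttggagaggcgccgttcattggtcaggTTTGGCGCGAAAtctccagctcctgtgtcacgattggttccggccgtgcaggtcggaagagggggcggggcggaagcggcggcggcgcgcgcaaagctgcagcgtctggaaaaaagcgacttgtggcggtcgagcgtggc
The 4 matches in MCM6 form 2 pairs that overlap. Counted from the start, the first base of each match lay at -152, -148, -90 and -86 in MCM6, at -33 and -20 in E2F1 and at -44 in CDC25A. Members with a match had a median log2 difference of 0.20 between control serum and the untreated culture over 19 genes, and members without had 0.12 over 22 genes. The promoter of MCM6 held the most matches of the 41, and MCM6 differed by 0.023 there. The same split, with and without a match, gave 0.15 and 0.028 for catechin against untreated, and 0.12 and 0.027 for epicatechin. Taxifolin had 0.097 and 0.081, and resveratrol 0.19 and 0.14. The mean of the serum cultures against that of all others gave 0.150 and 0.125. Pycnogenol against control serum gave 0.052 and 0.049, with almost no gap. For epicatechin against taxifolin the split gave -0.11 and -0.066, so members with a match lay lower there. The split covers members alone, and a part of the motif in these differences was not tested.

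Each gene was read from its brightest probe set on a scale where a value under 34.9 was raised to that floor, and all 49 members lay above the signal filter at 269, which 9888 of the 19775 genes passed. The median signal of the 7 arrays ran from 114 to 136. Of 9 mesenchymal marker genes, 8 lay above the filter on these arrays and S100A4 did not, with a summed signal of 136190 with pycnogenol serum, 135100 with control serum and 123534 to 129688 in the other 5 cultures. None of 4 epithelial and none of 3 endothelial markers lay above the filter, and of 5 blood cell markers on the array the hemoglobin gene HBB alone did, at 522 with pycnogenol serum, 382 with control serum, 299 to 413 with the compounds and 227 in the untreated culture. The leukocyte marker PTPRC read 79.7 or less on every array. The 3′ over 5′ signal ratio of beta-actin, a measure of RNA integrity, was 3.56 with catechin, 4.02 with epicatechin, 3.05 with taxifolin, 2.52 with resveratrol, 2.82 with pycnogenol serum, 2.55 with control serum and 2.40 in the untreated culture, while that of GAPDH ran from 0.961 to 1.12. The part of RNA integrity in the differences below was not tested.

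The program as a whole read highest in the 2 serum cultures and lowest in the untreated and epicatechin cultures. Set against each gene's own mean over the 7 arrays, the members had a median log2 level of 0.0013 with catechin, -0.092 with epicatechin, -0.044 with taxifolin, 0.040 with resveratrol, 0.16 with pycnogenol serum, 0.056 with control serum and -0.12 in the untreated culture. The same median over all 9888 genes stayed between -0.017 and 0.021. Above their own mean lay 40 of the 49 members with pycnogenol serum, 37 with control serum, 31 with resveratrol, 25 with catechin, 21 with taxifolin, 11 with epicatechin and 9 in the untreated culture.

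**Figure D1:**
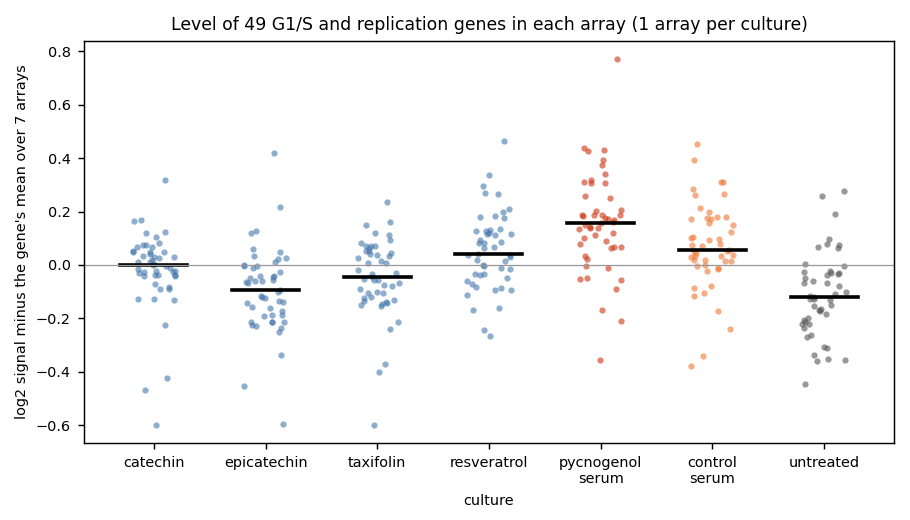
Log2 signal of each of the 49 members minus that gene's mean over the 7 arrays, by culture. Each point is 1 gene and each bar the median over the genes, from 0.16 with pycnogenol serum at the high end to -0.12 in the untreated culture at the low end, and the clouds of all 7 cultures overlap.

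**Figure D2:**
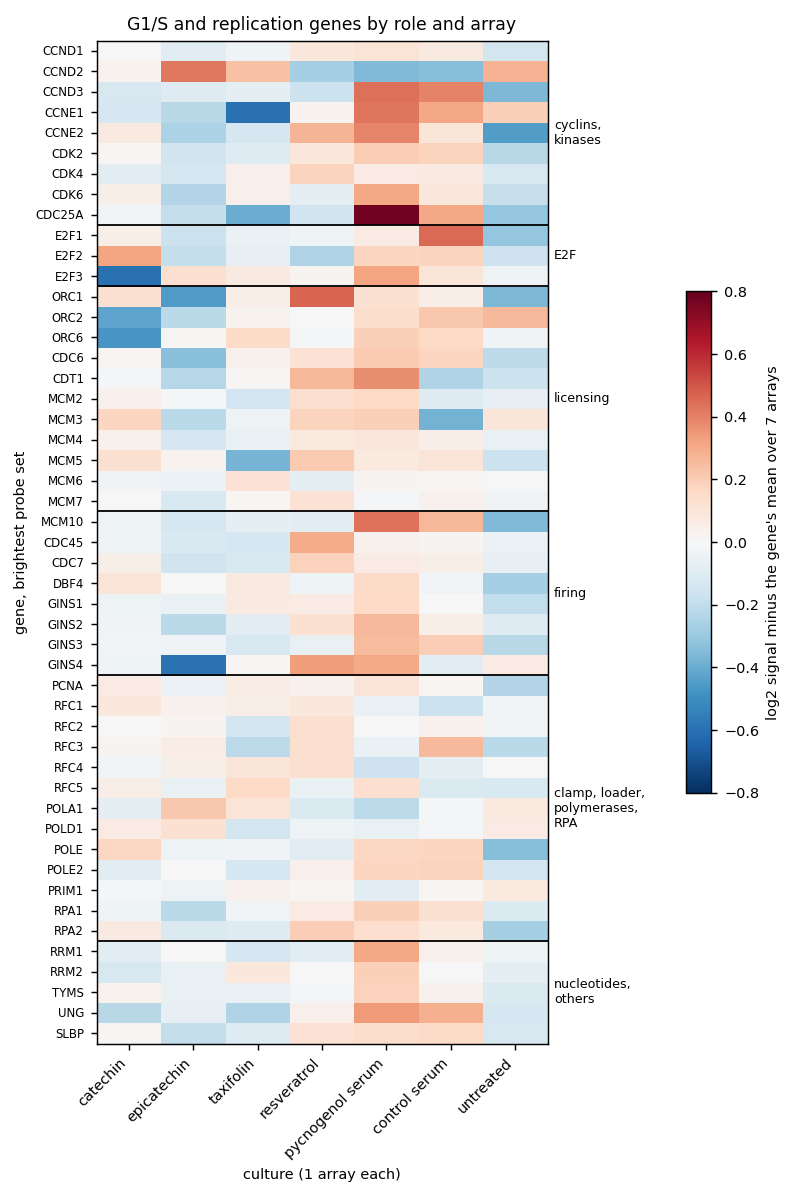
Log2 signal of each member minus its mean over the 7 arrays, with genes in rows grouped by role and 1 array per column. Red marks values above the gene's mean and blue values below it, and both serum columns are red for most cyclins and kinases while the untreated column is mostly blue.

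The 2 serum cultures were then set against the 5 cultures without test serum. In 17 of 49 members both serum arrays lay above all 5 others, against 13.5% of all genes, and in 3 members both lay below, against 16.1% of all genes. The 17 were CCND3, CCNE1, CDK2, CDK6, CDC25A, E2F1, ORC6, CDC6, MCM10, GINS3, POLE, POLE2, RPA1, RRM1, TYMS, UNG and SLBP, and the 3 were CCND2, RFC1 and RFC4. The mean of the 2 serum arrays exceeded that of the other 5 in 42 of 49 members, against 48.1% of all genes, with a median log2 difference of 0.15 over the members and -0.010 over all genes. Among the 84 member probe sets above the filter, 28 had both serum arrays above the other 5, 33.3% against 12.5% of all 17655 such probe sets, and 4 had both below, 4.76% against 14.8%. The 5 arrays without test serum are different treatments and not replicates, so these are counts of an ordering and not a test.

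The cyclins and kinases held 4 of the 5 members with the largest difference in that contrast, namely CDC25A, CCND3, CCNE1 and CCND2, with a median log2 difference of 0.28 over 9 genes. CDC25A, the phosphatase that activates CDK2, read 2067 with pycnogenol serum and 1502 with control serum, against 1193 with catechin, 1063 with epicatechin, 919 with taxifolin, 1083 with resveratrol and 976 in the untreated culture. Both serum arrays lay above the other 5, by 0.76 (log2) on average, and its other 2 probe sets gave 1.16 and 0.64 with no overlap either. CCND3, a D cyclin, had 2989 with pycnogenol serum and 2902 with control serum, against 2023 with catechin, 2056 with epicatechin, 2095 with taxifolin, 1961 with resveratrol and 1721 in the untreated culture. The 5 cultures without test serum spanned a narrow range in CCND3 and both serum cultures lay above it, with a mean difference of 0.58, while its other probe set lay under the filter with signals of 83.4 or less.

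CCND2, another D cyclin, ran the opposite way. It read 2817 with pycnogenol serum and 2846 with control serum, against 3683 with catechin, 4822 with epicatechin, 4245 with taxifolin, 2996 with resveratrol and 4369.5 in the untreated culture. Both serum arrays lay below the other 5, and resveratrol was the nearest of these. The mean difference was -0.49, and the second CCND2 probe set, at 415 and 421 in the serum cultures against 582 to 874 in the other 5, gave -0.76. CCND1, the D cyclin most often amplified in tumours, read 18082 with catechin, 16908 with epicatechin, 17611 with taxifolin, 19129.7 with resveratrol, 19486 with pycnogenol serum, 18946 with control serum and 16265 in the untreated culture. Pycnogenol serum and resveratrol were the highest for CCND1 and the untreated culture the lowest, but on its second probe set the untreated culture was the second highest, and the 3 D cyclins did not share an order.

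CCNE1, a cyclin that activates CDK2, read 1143 with pycnogenol serum and 1055 with control serum, against 776 with catechin, 728 with epicatechin, 562 with taxifolin, 868 with resveratrol and 971 in the untreated culture. Taxifolin was lowest and both serum cultures highest, with the untreated culture next below them and a mean difference of 0.52 between the serum arrays and those without test serum. The related CCNE2 read 4869 with catechin, 3891 with epicatechin, 4221 with taxifolin, 5577 with resveratrol, 6073 with pycnogenol serum, 4944 with control serum and 3396 in the untreated culture, highest with pycnogenol serum and resveratrol and lowest in the untreated culture. Resveratrol lay between the 2 serum cultures in CCNE2 and the groups overlapped on this probe set. On the second probe set of CCNE2, 691 and 657 in the serum cultures lay above 263 to 563 in the other 5. CDK2, the kinase partner of cyclin E, read 6795 with pycnogenol serum and 6690.5 with control serum, against 5950.4 with catechin, 5296 with epicatechin, 5492 with taxifolin, 6296 with resveratrol and 5072 in the untreated culture. The serum arrays did not overlap with the rest on this CDK2 probe set, and the next highest was resveratrol. On the second CDK2 probe set pycnogenol serum, at 588, lay below the untreated culture, at 695. CDK6 read 16112 with pycnogenol serum and 13875 with control serum, against 11065 to 13468 in the other 5, and CDK4 did not separate them, at 14523 and 14589.5 against 12574 to 15677. On the second CDK6 probe set control serum, at 8156, lay below the untreated culture, at 8890.

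**Figure D3:**
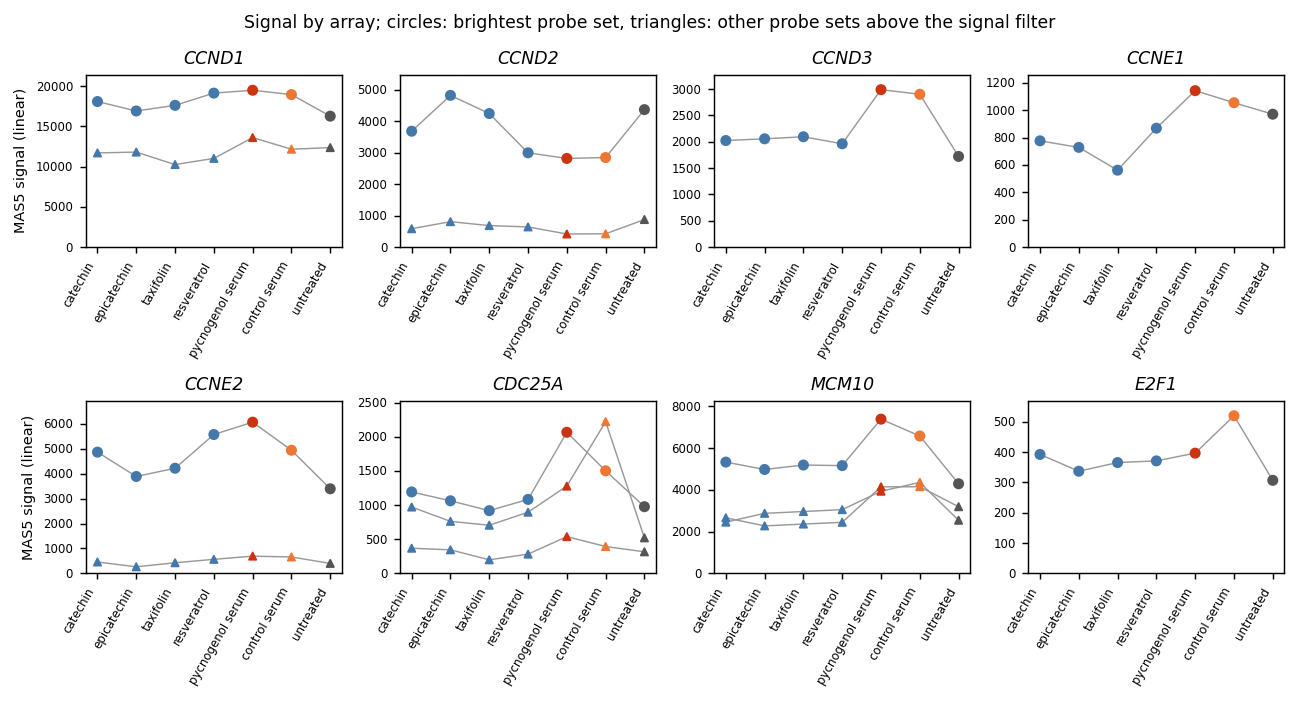
MAS5 signal on a linear axis starting at 0 for 8 members in the 7 cultures, with compounds in blue, pycnogenol serum in red, control serum in orange and the untreated culture in grey. Circles are the brightest probe set and triangles the others above the filter, joined by thin lines for each probe set. Both serum points lie above the rest on all 3 probe sets of CDC25A and of MCM10 and below the rest on both probe sets of CCND2.

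The 3 E2F factors lay higher with serum in 3 of 3 cases, where 48.1% of all genes did, with a median difference of 0.29. E2F1, an activator of replication genes, read 393 with catechin, 337 with epicatechin, 366 with taxifolin, 371 with resveratrol, 397 with pycnogenol serum, 520.3 with control serum and 307 in the untreated culture. Control serum was highest and pycnogenol serum next, with catechin close below it. A different E2F1 probe set, whose mean lay under the filter, read 71.6 with control serum and 98.7 with catechin against 360.0 to 496 in the other 5 cultures, so the direction for E2F1 rests on the probe set used. E2F3 read 3044 with catechin, 5043 with epicatechin, 4849 with taxifolin, 4677 with resveratrol, 5748 with pycnogenol serum, 4941 with control serum and 4490.0 in the untreated culture, with catechin the lowest on this probe set. On the second E2F3 probe set catechin and epicatechin read alike, at 503 and 531, and all 4 compounds lay below untreated, by a log2 difference of -1.03 with catechin, -0.95 with epicatechin, -0.48 with taxifolin and -0.61 with resveratrol. E2F2 read 543 with pycnogenol serum and 544 with control serum, within the 407 to 599.5 of the other 5.

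Among the licensing genes the contrast was narrower, with a median difference of 0.097 over 11 genes and 10 of them above 0, where 48.1% of all genes lay. CDC6, the loader of the MCM helicase, read 3882 with pycnogenol serum and 3789 with control serum, against 3403 with catechin, 2663 with epicatechin, 3439 with taxifolin, 3635 with resveratrol and 2914 in the untreated culture. Both serum arrays were highest for CDC6, with 3307 and 3642 against 2536 to 3107 on its second probe set. ORC6, a subunit of the origin recognition complex, read 7569 and 7412 in the pycnogenol and control serum cultures, against 4808 to 7377 in the other 5, with the taxifolin value close below the serum cultures. Subunits of the MCM helicase differed in how far they spread. On the brightest probe sets MCM6 spanned 12512 to 14359 over the 7 cultures, MCM4 7159 to 8359 and MCM7 7283 to 8592. The serum arrays lay inside the range of the others for MCM6 and MCM7. On the second MCM4 probe set pycnogenol serum, at 4013, lay below resveratrol, at 4640. Further MCM4 probe sets above the filter had both serum arrays highest. They read 3002 and 2714 against 1913 to 2594, and 753 and 637 against 374 to 549. MCM2 read 12950.4 and 10768 in the pycnogenol and control serum cultures, against 10425 to 12670.4 in the other 5, and MCM5 read 4933 and 5028 in the pycnogenol and control serum cultures, against 3612 to 5403 in the other 5, with taxifolin the lowest of the 7 in both. MCM3, another subunit, read 6812 with catechin, 5222 with epicatechin, 5876 with taxifolin, 6865 with resveratrol, 6898 with pycnogenol serum, 4661 with control serum and 6472 in the untreated culture, so that control serum was the lowest and pycnogenol serum the highest. CDT1, which brings MCM to origins, had a like order in the serum cultures, with 4667 with pycnogenol serum and 3051 with control serum, but its second probe set gave 491 and 478 and did not repeat the gap.

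ORC1, the largest subunit of the origin recognition complex, read 887 with catechin, 596 with epicatechin, 846 with taxifolin, 1124 with resveratrol, 887 with pycnogenol serum, 846 with control serum and 637 in the untreated culture. Resveratrol was highest and epicatechin lowest, and the serum arrays fell between them. ORC2 read 1299 with catechin, 1502 with epicatechin, 1772 with taxifolin, 1737 with resveratrol, 1918 with pycnogenol serum, 2021 with control serum and 2084 in the untreated culture. The untreated culture was highest on this ORC2 probe set and catechin lowest, while on the second probe set the untreated culture, at 836, was the second lowest.

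Genes of origin firing lay higher with serum in 8 of 8 cases, where 48.1% of all genes did, with a median difference of 0.13. MCM10, which helps to activate the loaded helicase, read 7387 with pycnogenol serum and 6579 with control serum, against 5329 with catechin, 4975 with epicatechin, 5188 with taxifolin, 5159.7 with resveratrol and 4290.3 in the untreated culture. Both serum arrays lay above the other 5 for MCM10. Its other probe sets gave mean differences of 0.58 and 0.69 against 0.49 for the brightest, with no overlap on any. GINS3, a subunit of the GINS complex, read 2339 with pycnogenol serum and 2256 with control serum, against 1934 with catechin, 1928 with epicatechin, 1805 with taxifolin, 1884 with resveratrol and 1687 in the untreated culture, and its second probe set also had both serum arrays highest, at 1305 and 1381 against 860.1 to 1073. GINS4 read 1020.2 with catechin, 693 with epicatechin, 1052 with taxifolin, 1321 with resveratrol, 1293 with pycnogenol serum, 984 with control serum and 1096 in the untreated culture, with epicatechin lowest and no separation of the serum cultures. CDC45, a core helicase partner, was highest with resveratrol at 2531, against 1868 to 2111 in the other 6 cultures. The kinase CDC7 was also highest with resveratrol, at 3046, against 2398 to 2804 in the other 6. Of the other GINS subunits, GINS1 read 10518 and 9428 in the pycnogenol and control serum cultures, against 8218 to 9911 in the other 5, and GINS2 read 5780.0 and 5025 in the pycnogenol and control serum cultures, against 4172 to 5254 in the other 5. In both, pycnogenol serum was the highest of the 7 and control serum lay among the other 5.

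The clamp, clamp loader and polymerase genes had the smallest median difference of the role groups, at 0.020, with 8 of 13 above 0, where 48.1% of all genes lay. On the brightest probe sets both serum arrays lay above the other 5 in POLE, POLE2 and RPA1, and below them in RFC1 and RFC4. For POLE the gap was slight, with 995 and 998 in the pycnogenol and control serum cultures and 993 with catechin. PCNA, the sliding clamp, read 27446 with catechin, 25361 with epicatechin, 27347 with taxifolin, 26864 with resveratrol, 28111 with pycnogenol serum, 26476 with control serum and 22233 in the untreated culture. The untreated culture was lowest for PCNA and the other 6 lay close together. RFC1 and RFC4, subunits of the clamp loader, were lower in both serum cultures, RFC4 at 9530.5 and 10131 against 10532 to 11710.2, and RFC1 at 3108 and 2859.5 against 3175 to 3413. On the second RFC1 probe set control serum, at 2884.5, lay above epicatechin, at 2749.5. RFC3 read 9253 with catechin, 9483 with epicatechin, 7852 with taxifolin, 9945 with resveratrol, 8783 with pycnogenol serum, 10901 with control serum and 7844 in the untreated culture, highest with control serum, and pycnogenol serum fell among the other 5. POLE2, a subunit of polymerase epsilon, read 2562 and 2574 in the serum cultures against 2045 to 2339. RPA1, a subunit of the single-strand binding protein, had both serum arrays highest at 10921 and 10432 against 8268 to 10048. On the second RPA1 probe set pycnogenol serum, at 4062, lay below resveratrol, at 4478. Another 6 genes of the group did not separate the serum cultures. RFC2 and RFC5, further subunits of the clamp loader, spanned 4266 to 5207 and 4070.4 to 4938 over the 7 cultures. POLA1 and POLD1, the catalytic subunits of polymerases alpha and delta, spanned 1966 to 2640.1 and 1623 to 1953. Epicatechin was the highest of the 7 for both polymerase genes. PRIM1 spanned 6064 to 6796 and RPA2 4269 to 5891.

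Of the 5 genes of nucleotide supply and related steps, all lay higher with serum, where 48.1% of all genes did, with a median difference of 0.21. UNG, the uracil glycosylase, read 11137 with pycnogenol serum and 10718 with control serum, against 7531 with catechin, 8394 with epicatechin, 7451 with taxifolin, 9035 with resveratrol and 8023 in the untreated culture. The serum arrays stood clear of the other 5 for UNG. RRM1, a subunit of ribonucleotide reductase, read 29704 with pycnogenol serum and 24551 with control serum, against 22638 with catechin, 24003 with epicatechin, 21833 with taxifolin, 22479 with resveratrol and 23441 in the untreated culture, with pycnogenol serum well above the other 6 and control serum just above epicatechin. On the second RRM1 probe set pycnogenol and control serum, at 2209 and 2563, lay within the 1313 to 2940 of the other 5. Thymidylate synthase TYMS read 34836 and 31368 in the serum cultures, against 28300.1 to 31292 in the others, and SLBP, the histone mRNA binding protein, read 15455 and 15543 against 12282 to 15179. On the second TYMS probe set pycnogenol and control serum, at 7250 and 8230, lay within the 6578 to 8558 of the other 5. RRM2, the other subunit of ribonucleotide reductase, overlapped, with 21839 and 19088 in the pycnogenol and control serum cultures, against 17544 to 20289 in the other 5. Its second probe set did not overlap, with 18390.2 and 19649 in the serum cultures against 14644 to 16723 in the other 5.

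Control serum against the untreated culture gave 38 of 49 members above 0, against 51.3% of all genes, with a median log2 difference of 0.19 and 0.0076 over all genes. No member differed by 2-fold, as 1.20% of all genes did. At 1.5-fold, 4 members were higher, against 3.17% of all genes, and 1 was lower, against 4.66%. The 5 largest were E2F1 at 0.76, CCND3 at 0.75, CDC25A at 0.62, CCND2 at -0.62 and MCM10 at 0.62, whose signals are given above. For CDC25A, MCM10 and CCND2 the second probe set had the same direction, at 2.09, 0.78 and -1.06. The other probe sets of E2F1 and CCND3, both under the filter, had the opposite direction, at -2.59 and -0.69. By role the medians were 0.28 for cyclins and kinases, 0.34 for the E2F factors, 0.067 for licensing, 0.18 for firing, 0.058 for the clamp and polymerase genes and 0.15 for the nucleotide genes. With the mean of the 5 cultures without test serum as reference the median over the members was 0.10, against -0.016 over all genes.

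Pycnogenol serum against control serum gave a smaller shift, with 33 of 49 members above 0, against 51.6% of all genes, and a median of 0.043, against 0.0083 over all genes. Its direction turned with the probe set, since the 25 members with a second probe set above the filter had a median of 0.066 on the brightest and -0.096 on the second. None differed by 2-fold, as 0.536% of all genes did, and CDT1 alone was higher by 1.5-fold, against 1.90% of all genes, with none lower, against 2.34%. The largest differences were CDT1 at 0.61, MCM3 at 0.57, CDC25A at 0.46, GINS4 at 0.39 and E2F1 at -0.39. On second probe sets above the filter, CDT1 lay at 0.039, CDC25A at -0.80 and GINS4 at 0.18. E2F1 lay at 2.41 on its other probe set, under the filter, and at 1.01 when its probe sets were averaged. GINS4 lay at -0.55 when averaged, so the direction of both turned. The average for GINS4 took in probe sets under the filter, at -1.48 and -1.30. On the brightest probe sets all 8 genes of origin firing lay above 0, as 51.6% of all genes did, with a median of 0.16, but the second probe sets of MCM10 and GINS3 lay at -0.15 and -0.082. The clamp and polymerase genes had a median of -0.0067. In 25 members pycnogenol serum was the highest of the 7 arrays, against 20.5% of all genes. With the untreated culture as reference the median was 0.27, and CDC25A at 1.08 was the 1 member past 2-fold, against 2.24% of all genes.

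The 4 compounds were each set against the untreated culture, which they share, so their differences are given side by side. Above 0 lay 36 of 49 members with catechin, against 57.6% of all genes, 30 with epicatechin, against 57.3%, 34 with taxifolin, against 57.2%, and 40 with resveratrol, against 54.8%. The medians were 0.11 with catechin, 0.055 with epicatechin, 0.089 with taxifolin and 0.18 with resveratrol, where all genes had 0.035, 0.032, 0.032 and 0.025. For the 25 members with a second probe set above the filter, medians on the brightest and the second were compared. They were 0.145 and 0.058 with catechin, 0.055 and -0.087 with epicatechin, 0.089 and 0.020 with taxifolin, and 0.15 and 0.19 with resveratrol. No member differed by 2-fold with any compound, as 0.455% of all genes did with catechin, 0.314% with epicatechin, 0.465% with taxifolin and 0.728% with resveratrol. The untreated array was the lowest of the 7 in 16 members, against 16.9% of all genes, and the highest in 2, ORC2 and PRIM1, against 9.68%. All 4 compounds lay above untreated in 17 members, against 25.9% of all genes, and below it in 3, namely CCNE1, ORC2 and the primase subunit PRIM1, against 14.7%. With the mean of the other 4 arrays without test serum as reference, the medians were 0.052 with catechin, -0.049 with epicatechin, 0.0225 with taxifolin and 0.13 with resveratrol. All genes had 0.020, 0.013, 0.013 and 0.0028 there.

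Resveratrol, a stilbene, had 2 members higher by 1.5-fold, against 2.29% of all genes, and none lower, against 2.17%. They were ORC1 at 0.82 and CCNE2 at 0.72, followed by CCND2 at -0.54, RPA2, a subunit of the single-strand binding protein, at 0.46 and CDT1 at 0.44. On second probe sets CCNE2 lay at 0.50, CCND2 at -0.45 and CDT1 at -0.29, and ORC1 and RPA2 had no other. On the brightest probe sets all 8 firing genes lay above 0, as 54.8% of all genes did, from 0.16 to 0.34. Their other probe sets above the filter were mixed. The second of GINS3 lay at -0.084 and that of GINS4 at 0.66, and the others of MCM10 at 0.26 and -0.38. In 11 members resveratrol was the highest of the 7 arrays, against 12.9% of all genes.

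Catechin, a flavan-3-ol, had 1 member lower by 1.5-fold, against 1.57% of all genes, and none higher, against 1.98%. This was ORC2 at -0.68, with 0.24 on its second probe set. Catechin was the lowest of the 7 arrays in 4 members, against 10.1% of all genes. Next after ORC2 were E2F3 at -0.56, where the second probe set gave -1.03, CCNE2 at 0.52, POLE, the catalytic subunit of polymerase epsilon, at 0.50 and E2F2 at 0.48. POLE read 993 with catechin, 861 with epicatechin, 869 with taxifolin, 832 with resveratrol, 995 with pycnogenol serum, 998 with control serum and 701 in the untreated culture, and the untreated culture was the one low value, and POLE lay at 0.30 with epicatechin and 0.31 with taxifolin.

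Epicatechin, the epimer of catechin, had 1 member lower by 1.5-fold, against 1.33% of all genes, and none higher, against 1.49%. GINS4 lay at -0.66, with 0.15 on its second probe set, ORC2 at -0.47, CCNE1 at -0.41, MCM3 at -0.31 and POLE at 0.30. Epicatechin was the lowest of the 7 in 11 members, against 11.9% of all genes. Of the 11 licensing genes 3 lay above 0, where 57.3% of all genes did, and 8 below, with a median of -0.075. The sign of the median over all members turned to -0.049 against the mean of the other arrays without test serum. Taxifolin, a dihydroflavonol, had CCNE1 at -0.79 as the 1 member lower by 1.5-fold, against 1.84% of all genes, and none higher, against 1.46%. It was followed by ORC1 at 0.41, DBF4, the activator of CDC7, at 0.33 and CCNE2 at 0.31. DBF4 read 11566 with catechin, 10734 with epicatechin, 11283 with taxifolin, 10504 with resveratrol, 11937 with pycnogenol serum, 10578 with control serum and 8958 in the untreated culture, and as with POLE the untreated culture was the low value. Taxifolin was the lowest of the 7 in 9 members, against 10.1% of all genes.

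Epicatechin and taxifolin were given at the same concentration for the same time, the 1 such pair here. Taxifolin carries a ketone on its central ring that epicatechin lacks, and the 2 also differ in the stereochemistry of that ring. Epicatechin lay above taxifolin in 15 of 49 members, against 49.8% of all genes, with a median log2 difference of -0.061, against -0.0007 over all genes. None differed by 2-fold, as 0.324% of all genes did. GINS4 at -0.60 was the 1 member lower by 1.5-fold, against 1.41% of all genes, and none was higher, against 2.06%. ORC1 lay at -0.50, MCM5 at 0.40, CCNE1 at 0.37 and CDC6 at -0.37, with -0.11, -0.43 and -0.17 on the second probe sets of GINS4, MCM5 and CDC6. With 1 array each, no interval of this difference could be given, and the beta-actin ratio also differed, at 4.02 with epicatechin and 3.05 with taxifolin.

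**Figure D4:**
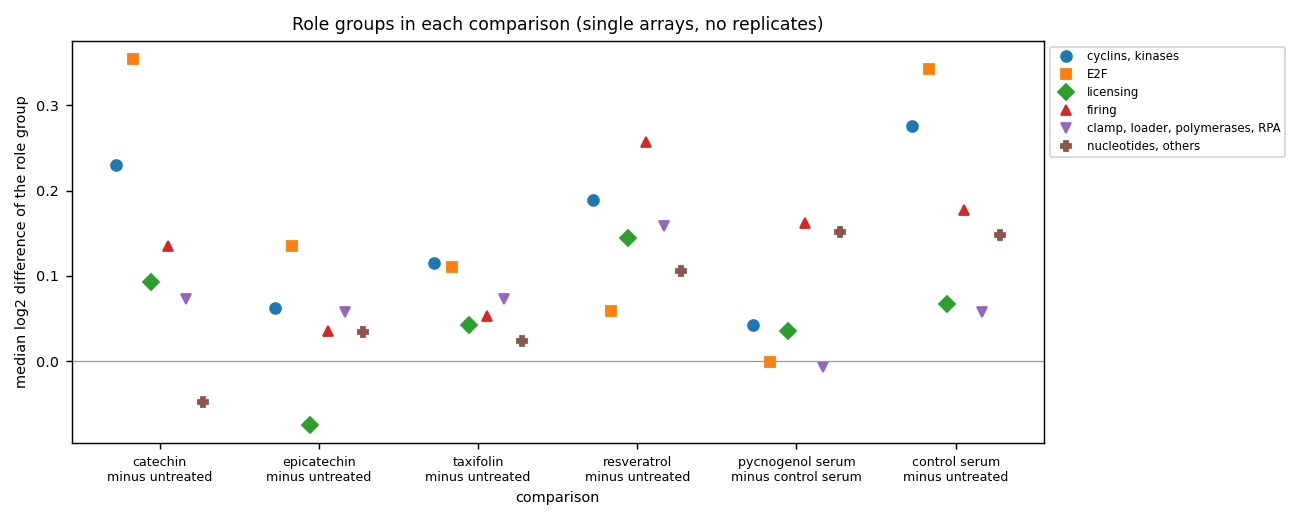
Median log2 difference of each role group in 6 comparisons of single arrays, with the compounds and control serum set against the untreated culture and pycnogenol serum against control serum. Cyclins and kinases have their highest median, 0.28, with control serum, and firing genes theirs, 0.26, with resveratrol.

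A further probe set passed the filter for 25 of the 49 members and gave a second reading of the same RNA. For the 2 serum arrays against the 5 without test serum both probe sets had the same direction in 21 of 25 members, 84.0%, against 69.6% of the 4702 genes with such a pair. The share was 18 of 25 for control serum against untreated, 72.0% against 64.3% of genes. It was 12 of 25 with catechin, 48.0% against 53.5%, 9 with epicatechin, 36.0% against 52.0%, 11 with taxifolin, 44.0% against 52.1%, and 14 with resveratrol, 56.0% against 57.7%. For pycnogenol against control serum it was 8 of 25, 32.0% against 55.8%. Of these 25 members, 9 had both serum arrays above all 5 others on the brightest probe set. On the second as well, 4 did, against 36.2% of all genes so ordered on the brightest. These were CDC25A, CDC6, MCM10 and GINS3. Of 2 members with both serum arrays below, CCND2 alone repeated it, against 37.6% of all such genes. Of the 8 members of these 25 whose brightest probe set was lowest in the untreated culture, RFC3 alone had it lowest on the second as well, against 18.4% of all such genes. Both probe sets come from the same array, so their agreement does not stand for a second culture.

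**Figure D5:**
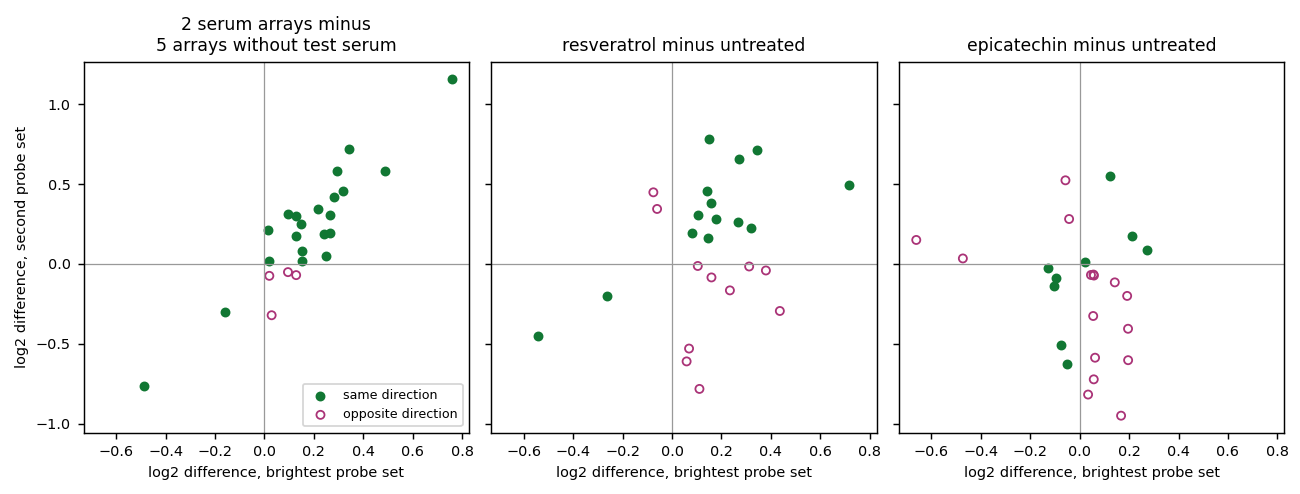
Log2 difference on the second probe set against that on the brightest for the 25 members with both above the filter, in 3 comparisons. Filled points have the same direction on both, 21 of 25 for the serum arrays against those without test serum, 14 with resveratrol and 9 with epicatechin.

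Over the 10 pairs of arrays without test serum the SD of the 49 log2 differences ran from 0.189 to 0.266, and over the 10 pairs that set a serum culture beside one of them from 0.240 to 0.305, while the 2 serum arrays differed with an SD of 0.187. Over all genes above the filter these SDs were larger, at 0.235 to 0.282, 0.323 to 0.387 and 0.277, so the wider spread with serum was not particular to the members.

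Further genes of the pathway were read from lists that hold no member. Of 31 other replication genes above the filter, 24 lay above 0 with control serum against untreated, where 51.3% of all genes did, with a median of 0.23. With the compounds 24 lay above 0 with catechin, against 57.6% of all genes, 26 with epicatechin, against 57.3%, 23 with taxifolin, against 57.2%, and 24 with resveratrol, against 54.8%, with medians of 0.13, 0.092, 0.043 and 0.17. FEN1, the flap nuclease that trims Okazaki fragments, read 8973 with catechin, 14938 with epicatechin, 7961 with taxifolin, 12738 with resveratrol, 14424 with pycnogenol serum, 24541 with control serum and 11356 in the untreated culture. It differed by 1.11 with control serum, past 2-fold, and by 0.57 on its second probe set. DNA2, a helicase and nuclease, differed by 0.84, and GMNN, the inhibitor of CDT1, by 0.67. Against control serum, pycnogenol serum had FEN1 at -0.77 and -0.043 on the second probe set.

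The list of kinase inhibitors, pocket proteins and other E2F genes showed no shared direction. Of 13 above the filter, 7 lay above 0 with control serum against untreated, where 51.3% of all genes did, with a median of 0.089, and 4 with pycnogenol against control serum, where 51.6% did, with a median of -0.10. CDKN2D, an inhibitor of CDK4 and CDK6, read 280.3 with catechin, 328 with epicatechin, 257 with taxifolin, 275 with resveratrol, 368 with pycnogenol serum, 153 with control serum and 315 in the untreated culture, so that control serum alone was low, at -1.05 against untreated. E2F5, a repressor, lay at -0.57 and E2F6 at 0.45. CDKN1B, the inhibitor p27, lay at -0.31 with pycnogenol against control serum, and RBL1, a pocket protein, at -0.31, with 0.21 on its second probe set. The largest absolute differences with the compounds were CDKN1A, the inhibitor p21, at -0.37 with catechin and E2F4 at -0.45 with epicatechin. For taxifolin it was CDKN2D at -0.29 and for resveratrol E2F5 at -0.68. The highest values of the list were 0.36 with catechin, 0.29 with epicatechin, 0.27 with taxifolin and 0.32 with resveratrol. CDKN2A did not pass the filter and read 179.9 or less on every array.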

How the data were processed

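Total RNA of 7 HT1080 cultures was hybridised to 1-colour arrays, 1 per culture. The deposited values are linear MAS5 signal intensities made by the authors, per the submitters' processing notes. The version, detection calls and scaling target are not given in the sources used here. A mean trimmed by 2% at each end came to 999.9 on every array. Of 54675 probe sets, 41097 were assigned to 1 gene, 1801 to several and 11777 to none, with symbols updated through RefSeq GRCh38.p14. Signals under the 25th percentile, 34.9, were raised to it, then log2 was taken. A gene was read from its brightest probe set and kept where its mean log2 signal reached the median of all genes.

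Differences are log2 of the first array minus the second, called at 2-fold. With 1 array per group, no test was made, and the number of arrays limits the precision. Per comparison, members past 2-fold, or otherwise the 5 with the largest absolute difference, are named. Further genes singled out by role were chosen after their values were seen. The members and lists were chosen with earlier results of these data known. Alternatives changed the normalization, filter, floor, probe set rule, fold threshold and the array set against. The computation used Python 3.11.15 with numpy 2.4.6 and pandas 2.3.3, figures used matplotlib 3.10.9, and the scripts were tested on simulated data.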

Additional observations from a re-analysis of the deposited data

How the results depend on the processing

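No paired analysis was possible because each group held 1 array. Of 70 medians of the members under alternatives, 63 moved by less than 0.065, the SD of the members' level over the 5 arrays without test serum, and kept their sign. Dropping the filter, dropping the floor or raising the floor could not move these medians, since all members lay above both. Averaging a gene's probe sets, which left 48 members, gave a median of 0.11 for control serum, -0.049 for epicatechin and 0.0036 for taxifolin, each against untreated. Set against the mean of the other arrays without test serum, it was 0.10 for control serum, -0.049 for epicatechin and 0.0225 for taxifolin, so epicatechin changed sign under both. Pycnogenol serum against untreated gave 0.27. At 1.5-fold in place of 2-fold, the members counted were 5 for control serum, 1 for pycnogenol against control serum, 1 each for catechin, epicatechin and taxifolin, and 2 for resveratrol. Of 310 values of named members under the 8 settings applied to every comparison, 7 had another sign, in E2F1, GINS4 and MCM5. Changes of filter and floor left the named values as they were, so only normalization and the probe set rule could turn a sign. E2F1 with control serum was -0.92 when its probe sets were averaged and -2.59 on its other probe set, also the value once _x_at and _s_at probe sets were left out. E2F1 with pycnogenol against control serum, -0.39 on its brightest probe set, was 1.01 and 2.41 under the same 2 settings. GINS4 there was -0.55 after averaging, which took in its probe sets under the filter. MCM5 for epicatechin against taxifolin was -0.014 after averaging and -0.43 once _x_at and _s_at probe sets were left out. On single other probe sets, which are not among the 310, CCND3 with control serum was -0.69 on its other probe set, ORC2 with catechin 0.24 on its second, and GINS4 with epicatechin 0.15 and 0.20 on 2 others. Counts of orders were recomputed under settings chosen after seeing the data. Members with both serum arrays below all others numbered 1 of 48 after averaging, against 14.5% of all genes. Once _x_at and _s_at probe sets were left out they numbered 1 of 35, against 15.8%. Members with the untreated array lowest numbered 7 of 48 after averaging, against 13.2% of all genes. The cause was not tested.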

Other observations

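Genes of later cell cycle steps, which hold no member, were also read. All 12 lay above the filter, and 9 were above 0 with control serum against untreated, where 51.3% of all genes were, with a median log2 difference of 0.19. The same count was 7 with catechin, 9 with epicatechin, 9 with taxifolin and 9 with resveratrol, where 57.6%, 57.3%, 57.2% and 54.8% of all genes lay above 0. For the 2 serum arrays against the 5 without test serum 10 of 12 lay above 0, where 48.1% of all genes did, with a median of 0.13. AURKA, a kinase of the mitotic spindle, lay at 0.48 with control serum against untreated and at 0.35 on its second probe set. PLK1, another mitotic kinase, lay at -0.50 there and at 0.97 with pycnogenol against control serum.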
